A study of Rattus norvegicus with 43 samples.

Results

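Col1a1, Col6a1, Sparc and Sfrp2 were followed in RNA from the colonic mucosa of rats given azoxymethane, a colon carcinogen, at 15 mg/kg. Every probe that the platform annotation assigns to any of these symbols was taken, which gave 6 probes of 8452 on the array, for 4 genes of 5628 that have a probe with a single symbol. Sfrp2 was chosen by its rise at 10 wk in these same arrays, so its difference between the times is described here and not tested. The other 3 were taken as collagens of fibroblasts and Sparc. The rats were male Sprague Dawley animals, labelled weanling, on a diet whose fat was corn, fish or olive oil, and every group received the carcinogen, so none is untreated. The 10 wk groups held 5 rats on corn oil (8 arrays), 4 on fish oil (8 arrays) and 5 on olive oil (7 arrays), and the 12 h groups held 5 rats on each oil (7 arrays for corn, 7 for fish and 6 for olive). The time is counted from injection on each sample's own label, while the treatment protocol describes a second injection for the late rats and an interval of 9 wk after it, so number of injections, age and time on diet differ between the times together.

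Type I collagen, of which Col1a1 encodes the alpha 1 chain, is the main fibrillar collagen of connective tissue and is secreted by fibroblasts. Type VI collagen, whose alpha 1 chain is encoded by Col6a1, forms beaded microfilaments beside those fibrils, and Sparc encodes a secreted glycoprotein that binds collagen and calcium. Sfrp2 encodes a secreted frizzled-related protein, which binds Wnt ligands outside the cell. In the colon these genes are known mainly from the stromal cells that lie under the epithelium, where Wnt and BMP signals between stroma and crypts bear on epithelial renewal.

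By RefSeq's annotation of the rat build GRCr8, Col1a1 lies on chromosome 10 from 80380458 to 80397461, Sparc on chromosome 10 from 40017065 to 40038816, Col6a1 on chromosome 20 from 11905690 to 11924111 and Sfrp2 on chromosome 2 from 171387536 to 171395081. The array files give no position for a probe within its gene. RefSeq promoters, 250 bases before to 50 after the start site, were matched for Sfrp2, Sparc and Col6a1. They are shown for Sparc and Col6a1 because the levels of these 2 genes varied together between rats, and for Sfrp2 because it had the largest difference between the times. Capitals mark matches, on either strand, to any of 4 promoter motifs chosen after the windows were read. These were the TATA box with the letters TATAAA, the box whose letters are CCAAT, the GC box with the letters GGGCGG, and the AP-1 element with the letters TGACTCA, and no match overlaps another.
Sparc, chr10:40038767-40039066, minus strand: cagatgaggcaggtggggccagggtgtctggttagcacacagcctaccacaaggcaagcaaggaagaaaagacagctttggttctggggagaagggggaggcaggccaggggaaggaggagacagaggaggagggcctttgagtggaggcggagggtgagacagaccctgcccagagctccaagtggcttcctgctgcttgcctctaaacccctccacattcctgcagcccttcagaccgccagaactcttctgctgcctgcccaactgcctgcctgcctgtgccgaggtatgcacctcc
Col6a1, chr20:11905440-11905739, plus strand: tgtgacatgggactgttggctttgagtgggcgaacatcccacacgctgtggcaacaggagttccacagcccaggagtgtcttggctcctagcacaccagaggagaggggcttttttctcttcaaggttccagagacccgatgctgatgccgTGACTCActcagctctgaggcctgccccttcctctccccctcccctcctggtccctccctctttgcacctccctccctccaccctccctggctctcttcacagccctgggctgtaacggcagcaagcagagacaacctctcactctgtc
Sfrp2, chr2:171387286-171387585, plus strand: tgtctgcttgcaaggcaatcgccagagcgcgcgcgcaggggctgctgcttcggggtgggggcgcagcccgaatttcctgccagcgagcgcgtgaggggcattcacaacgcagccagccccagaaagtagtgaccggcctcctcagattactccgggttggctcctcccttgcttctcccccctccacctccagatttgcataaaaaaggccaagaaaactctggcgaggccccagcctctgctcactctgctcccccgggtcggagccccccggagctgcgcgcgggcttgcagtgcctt
The single match was the AP-1 element in Col6a1, whose first base lies 99 bases before the start site (position -99). The AP-1 element was present in 4.63% of the 33469 promoters of this length, the TATA box in 14.2%, the CCAAT box in 37.5% and the GC box in 33.1%. The 3 windows were 61.0% (Sparc), 59.7% (Col6a1) and 65.0% (Sfrp2) G or C, against a median of 51.7% over all promoters. The arrays did not measure promoters, and a match or its lack is only a description of these letters.

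Of the 6 probes, 4 were bright enough to be tested, 1 for each gene. Levels are log2 normalised intensities, with values under a floor of 6.46 set to it. The Sparc probe 10613 and the Col1a1 probe 10618 were above the scanner's noise level on all 43 arrays, and the Col6a1 probe 16002 on all 42 arrays that measured it. The Sfrp2 probe 19210 was above noise on 41 of 43 arrays, and both exceptions were 12 h rats, 102 (corn oil) and 201 (fish oil). A further Col1a1 probe, 12136, lay at the floor in all 29 rats. A further Sparc probe, 11704, lay at the floor in 14 rats and reached 7.20 in rat 104, the rat with the highest value of the brighter Sparc probe as well. Neither dim probe could check its brighter partner's differences between groups. Since probes differ in how well they hybridise, the level of a probe is not set against that of another gene.

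The arrays differed in how their spots and background were read out. From the files' own columns they fall into 4 classes, called scan classes here although what they stand for is not known, named high background (6 arrays), large spots (7), small ring (13) and large ring (17) after their local background, spot diameter and background ring area. Late and early rats were spread unevenly over them, with 11 late and 3 early rats in the large ring class, 1 late and 11 early in the small ring class, 2 late and 4 early in the large spots class, and 2 late and no early rats in the high background class, a rat counting in each class it has an array in. The members' differences between the times are therefore also given with scan class as a block. Differences within a single class are plain means of late minus early rats that take no account of diet. Between the times, averaged over diets, 2355 of 6378 tested probes passed an adjusted p of 0.05 (36.9%), 19.2% of all tested being higher and 17.7% lower at 10 wk, with a median difference of 0.0024. With scan class as a block 1873 of the 6378 passed, 963 as higher and 910 as lower.

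Col1a1 was lower at 10 wk by an amount just past the threshold. RNA came from bulk tissue, where fewer cells of a type and less RNA per cell cannot be told apart. In corn oil rats the Col1a1 level was 8.59, 8.38, 8.30, 8.56 and 8.69 at 10 wk, against 9.27, 9.33, 8.88, 9.05 and 8.59 at 12 h. In fish oil rats it was 8.30, 8.42, 8.07 and 8.90 at 10 wk, against 8.69, 8.70, 9.03, 8.72 and 8.61 at 12 h. In olive oil rats it was 8.53, 8.35, 8.54, 8.41 and 8.47 at 10 wk, against 8.12, 8.10, 8.85, 8.35 and 8.04 at 12 h. The times overlapped, with 12 of 14 late rats below the 12 h mean and 4 of 15 early rats, 3 of them on corn oil, above every late rat. Over all rats the level averaged 8.47 ± 0.20 at 10 wk (SD, n = 14) and 8.69 ± 0.40 at 12 h (SD, n = 15), and the fitted log2 difference was -0.23 (SE 0.09, 95% interval -0.41 to -0.04, limma adjusted p = 0.0492). The call lay at the edge of the threshold: it was lost when any of 21 of the 29 rats was left out (adjusted p up to 0.112), the rats whose removal left it in place being 104, 106, 206, 301, 302 and 306 at 12 h and 136 and 236 at 10 wk. Blocking on scan class gave -0.42 (SE 0.11, adjusted p = 0.00663), and within the classes it was -0.72 (large ring), -0.63 (small ring) and 0.13 (large spots). Early rats with large ring arrays were 2 on corn and 1 on fish oil, and those with large spots arrays 3 on olive and 1 on fish oil. Class and diet cannot be told apart in these values.

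Within single diets the Col1a1 difference did not pass, at -0.52 in corn oil (SE 0.15, adjusted p = 0.0561), -0.33 in fish oil (adjusted p = 0.193) and 0.17 in olive oil rats (adjusted p = 0.481). The shares of all tested probes that passed were 3.03% in corn oil, 12.2% in fish oil and 13.4% in olive oil. The limma F test of diet by time, which compares the differences of the 3 diets, did not pass for Col1a1. Its unadjusted p was 0.0109 and its adjusted p 0.938, and 0% of probes passed it. Blocking on scan class, the corn oil value was -0.65 (adjusted p = 0.00925), the fish oil value -0.57 (adjusted p = 0.034) and the olive oil value -0.04 (adjusted p = 0.923). With that block 800 of 6378 probes passed in corn oil, 832 in fish oil and 344 in olive oil. The corn oil difference also passed with the first array of each rat (-0.65, adjusted p = 0.0169), with array quality weights (-0.49, adjusted p = 0.0263) and without the high-background arrays (-0.63, adjusted p = 0.0116), and the fish oil difference with first arrays (-0.51, adjusted p = 0.035) and without the high-background arrays (-0.48, adjusted p = 0.0272). At 12 h the olive oil rats averaged 8.29 ± 0.33 and the corn oil rats 9.02 ± 0.30 (SD, n = 5 each), a difference of -0.73 (adjusted p = 0.163). Rat 304, at 8.85, was the only olive oil rat above the lowest corn oil rat. The F test over the 3 diets at 12 h had an unadjusted p of 0.000218 and an adjusted p of 0.174 in limma, where no probe of 6378 passed (0%, with 599 at an unadjusted p under 0.05). Of the 5 olive oil rats at 12 h, 3 had only large spots arrays, and no corn oil rat at 12 h had an array of that class. Blocking on scan class, the olive minus corn difference was -0.54 (adjusted p = 0.264), and it was -0.58 (adjusted p = 0.215) without the rats that have a large spots array. It passed with the first array of each rat (-0.75, adjusted p = 0.0162) and with array quality weights (-0.77, adjusted p = 0.00126). The F test passed with first arrays (adjusted p = 0.0405) and with the weights (adjusted p = 0.00252). The difference also passed without the high-background arrays (-0.73, adjusted p = 0.0223). No 12 h rat has such an array, so that setting left the difference itself unchanged and is no check of it. In the order of group means, only the step between fish oil at 12 h (8.75 ± 0.16) and corn oil at 10 wk (8.50 ± 0.16) exceeded the larger SD of the neighbouring pair.

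Repeat arrays of the same rat gave Col1a1 levels up to 0.97 apart. Rat 202 gave 9.18 on a small ring array and 8.21 on a large spots array. Rat 236 gave 9.16, 9.13 and 9.03 on high background arrays and 8.29 on a large ring array, and rat 136 gave 8.87, 8.88 and 8.85 on high background arrays and 8.17 on a small ring array. Repeats of a single class also differed, by 0.33 in rat 234 and 0.28 in rat 336 (both large ring), while rats 103 and 206 differed by 0.19 and 0.23 between classes. Over the 10 rats with repeat arrays the median range of Col1a1 was 0.26, against 0.12 for Sparc, 0.11 for Col6a1 and 0.15 for Sfrp2.

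**Figure D1:**
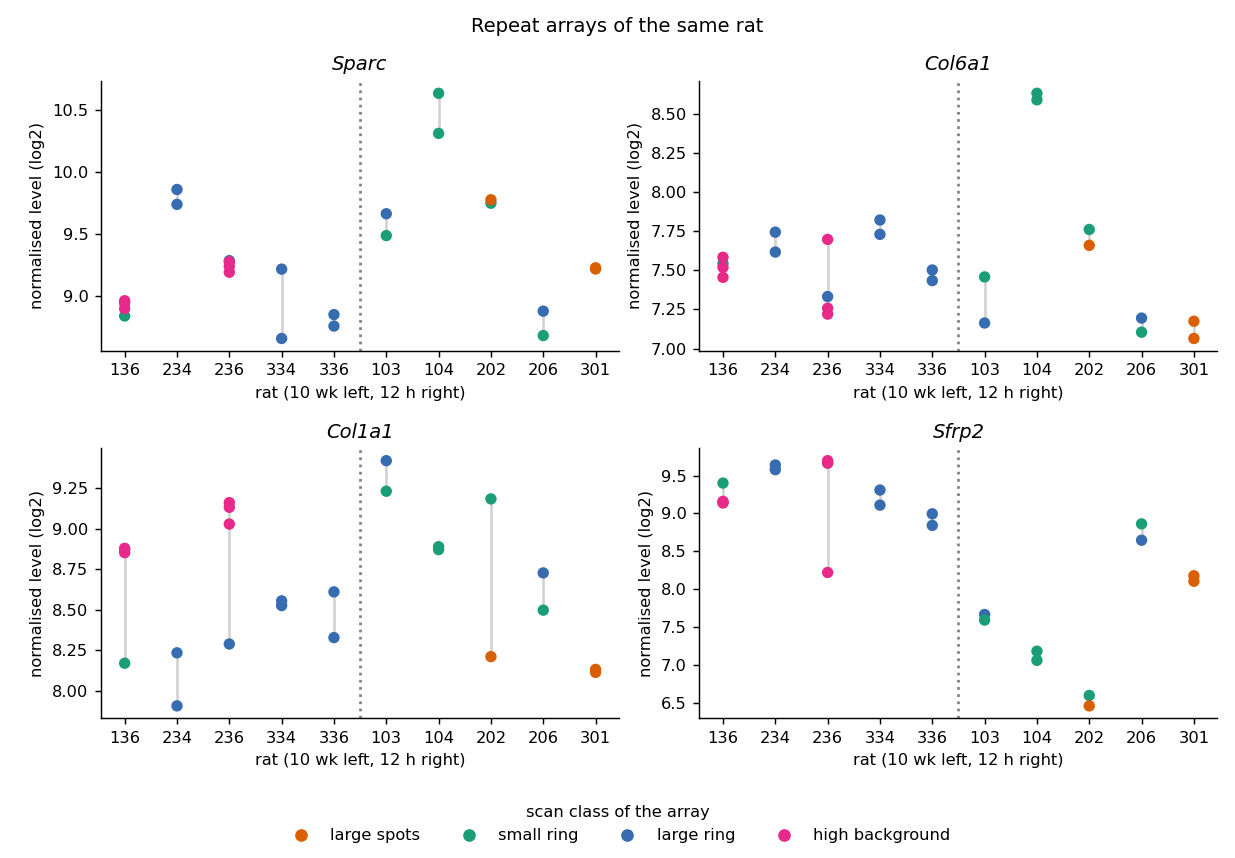
Level of each member (log2 normalised intensity, vertical axes of different span) on every array of the 10 rats with repeat arrays, coloured by scan class, with grey lines joining the arrays of a rat. Col1a1 in rats 136, 236 and 202 splits by scan class, by up to 0.97 in rat 202, while Sfrp2 in rat 236 has a single low array at 8.22.

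Col6a1 stood higher at 10 wk by an amount that did not pass. Its probe exceeded the filter level of log2 7.66 in 12 rats, at 12 h only in rats 102, 104 and 202. The filter asks for 4 rats, so the probe entered the test through the late rats, where it stood higher. The Col6a1 tests between the times carry this limit. In corn oil rats the Col6a1 level was 7.88, 7.77, 7.18, 7.93 and 7.52 at 10 wk, against 7.68, 7.31, 8.61, 7.26 and 7.51 at 12 h. In fish oil rats it was 7.70, 7.53, 7.68 and 7.38 at 10 wk, against 7.07, 7.71, 7.06, 7.37 and 7.15 at 12 h. In olive oil rats it was 7.92, 7.72, 7.77, 8.09 and 7.47 at 10 wk, against 7.12, 7.30, 7.25 and 7.25 at 12 h, where the spot of rat 305 is missing. All late olive oil rats lay above all early ones, while on corn oil the early rat 104 was the highest of all 28 rats. The level averaged 7.68 ± 0.25 at 10 wk and 7.40 ± 0.40 at 12 h (SD, n = 14 each), a difference of 0.28 (SE 0.11, 95% interval 0.05 to 0.52, adjusted p = 0.0532). Without rat 104 the difference was 0.36 (adjusted p = 0.00247), and it also passed without rats 202, 134, 236 or 336. Blocking on scan class it was 0.27 (adjusted p = 0.156), and within the classes 0.39 (large ring), 0.12 (small ring) and 0.09 (large spots). By diet it was 0.57 in olive oil (adjusted p = 0.061), 0.30 in fish oil (adjusted p = 0.348) and -0.02 in corn oil rats (adjusted p = 0.973). The olive oil value passed with rat as a random block (0.55, adjusted p = 0.0355) and with array quality weights (0.48, adjusted p = 0.0494). Among the 6 group means, only the step between fish oil at 10 wk (7.57 ± 0.15) and fish oil at 12 h (7.27 ± 0.28) exceeded the larger SD of its pair. The diets did not differ past the threshold at 10 wk (limma F test, adjusted p = 0.9998), where again 0% of probes passed (412 at an unadjusted p under 0.05), or at 12 h (adjusted p = 0.547). The Col6a1 differences between the times did not differ by diet past the threshold either (limma F test of diet by time, adjusted p = 0.938).

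Sparc did not differ between the times by more than the spread between rats. In corn oil rats the Sparc level was 9.67, 9.61, 8.36, 9.47 and 8.91 at 10 wk, against 9.34, 9.58, 10.48, 9.23 and 8.97 at 12 h. In fish oil rats it was 9.09, 9.03, 9.80 and 9.25 at 10 wk, against 9.08, 9.76, 9.22, 9.21 and 8.78 at 12 h. In olive oil rats it was 9.19, 9.49, 8.93, 10.12 and 8.80 at 10 wk, against 9.22, 9.52, 8.97, 9.21 and 8.42 at 12 h. Late and early rats overlapped in each diet, and rat 104 was again the highest of all rats. The level averaged 9.27 ± 0.46 at 10 wk (n = 14) and 9.27 ± 0.47 at 12 h (n = 15), and the difference was 0.0019 with a 95% interval of -0.34 to 0.34 (adjusted p = 0.993). By diet it was -0.32 in corn oil, 0.08 in fish oil and 0.24 in olive oil rats, none past the threshold (adjusted p = 0.588, 0.884 and 0.598), and the average was -0.13 when scan class was blocked (adjusted p = 0.661). No neighbouring pair of the 6 group means, which ran between 9.07 and 9.52, was separated by more than the larger SD of the pair. The F tests over diets gave an adjusted p of 0.9998 at 10 wk and 0.702 at 12 h, and that of diet by time 0.938.

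Sfrp2 had the fifth largest rise of all tested probes (rank 5 of 6378), the feature it was chosen by. In corn oil rats the Sfrp2 level was 7.92, 8.81, 7.61, 8.70 and 9.21 at 10 wk, against 6.48, 7.63, 7.12, 7.14 and 7.34 at 12 h. In fish oil rats it was 7.20, 7.49, 9.61 and 9.31 at 10 wk, against 6.46, 6.53, 8.32, 7.53 and 8.75 at 12 h. In olive oil rats it was 7.94, 7.83, 9.21, 9.12 and 8.92 at 10 wk, against 8.14, 7.73, 6.82, 6.81 and 6.98 at 12 h. On corn oil only the lowest late rat, 134 at 7.61, fell below an early rat, 103 at 7.63, while on fish oil rats 232 and 233 lay among the early rats and 234 and 236 lay above them. Of the 14 late rats 13 were above the 12 h mean and 7 above the highest early rat, and 8 of 15 early rats were below the lowest late rat. The level averaged 8.49 ± 0.79 at 10 wk (SD, n = 14) and 7.32 ± 0.70 at 12 h (SD, n = 15), a log2 difference of 1.17 (SE 0.27, 2.25-fold). Rat 201 lay at the floor, so its true level may be lower than the value used.

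The Sfrp2 difference was 1.31 (SE 0.47) in corn oil, 0.88 (SE 0.49) in fish oil and 1.31 (SE 0.47) in olive oil rats. The fish oil value was 0.48 without rat 234 and 1.28 without rat 232, the extremes with a rat left out, and 0.24 with array quality weights. Blocking on scan class the average over diets was 1.08 (SE 0.35), and within the classes it was 1.001 (large ring, 11 late and 3 early rats), 2.06 (small ring, 1 late rat) and 0.44 (large spots, 2 late and 4 early rats). The late groups were ordered olive oil, corn oil and fish oil and the early groups fish oil, olive oil and corn oil, and no neighbours in that order differed by more than the larger SD of the pair. Diets, which the choice of Sfrp2 did not use, gave an adjusted p of 0.9998 at 10 wk and 0.895 at 12 h, and the test of diet by time 0.959, where 0% of probes passed (260 at an unadjusted p under 0.05). Within-group spread was widest on fish oil, with an SD of 1.23 at 10 wk and 1.03 at 12 h, against 0.42 in corn oil rats at 12 h. In rat 236 the repeat arrays gave 9.70, 9.66, 9.67 and 8.22, the last of them a high background array like the first 2.

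**Figure D2:**
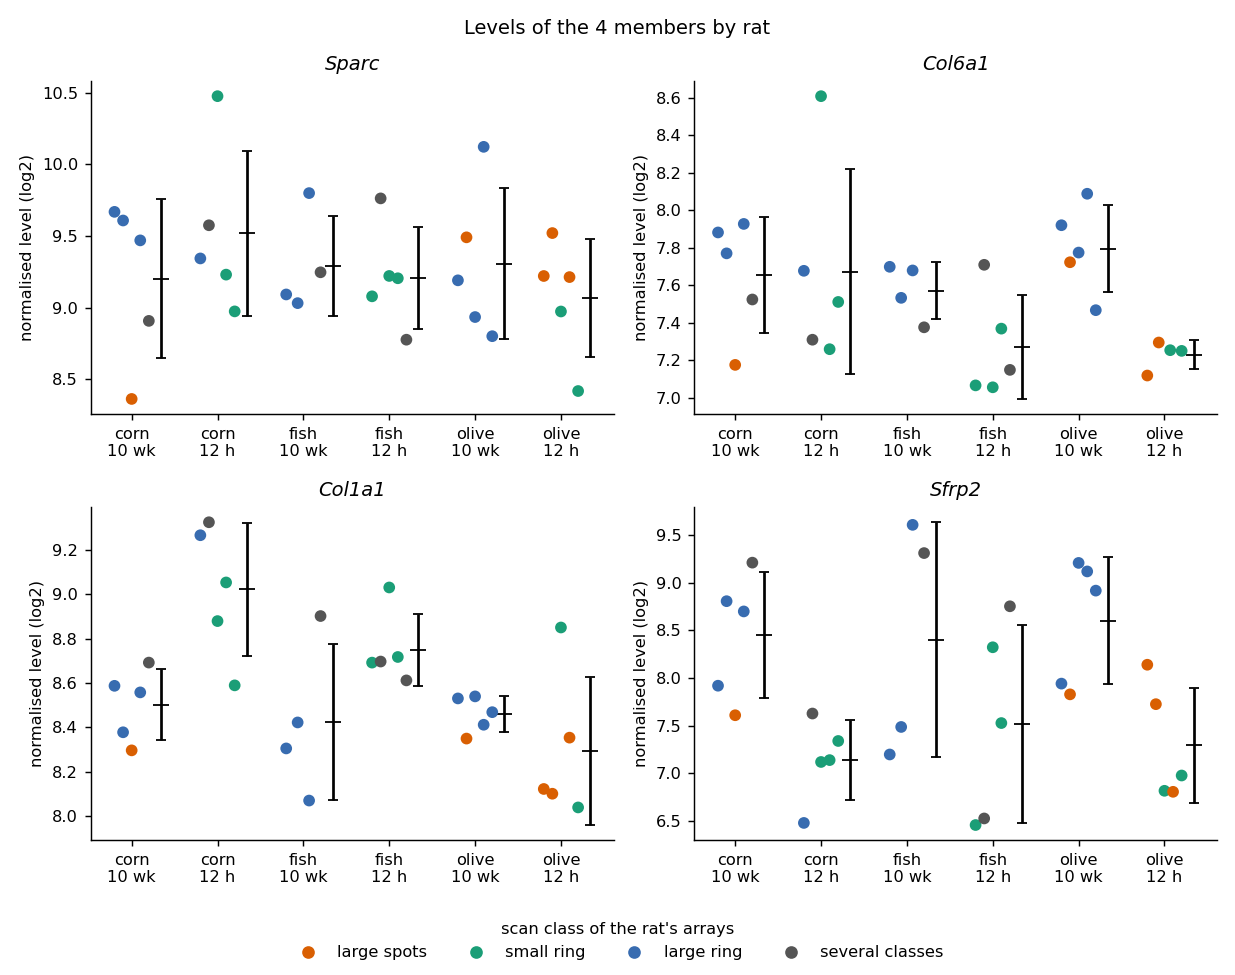
Level of the 4 tested probes (log2 normalised intensity, vertical axes of different span) in each rat, with 10 wk left of 12 h within each diet, dots coloured by the scan class of the rat's arrays, and bars giving mean ± SD. Sfrp2 at 10 wk reaches from 7.20 to 9.61, against 6.46 to 8.75 at 12 h, and Sparc reaches from 8.36 to 10.12 at 10 wk, against 8.42 to 10.48 at 12 h.

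**Figure D3:**
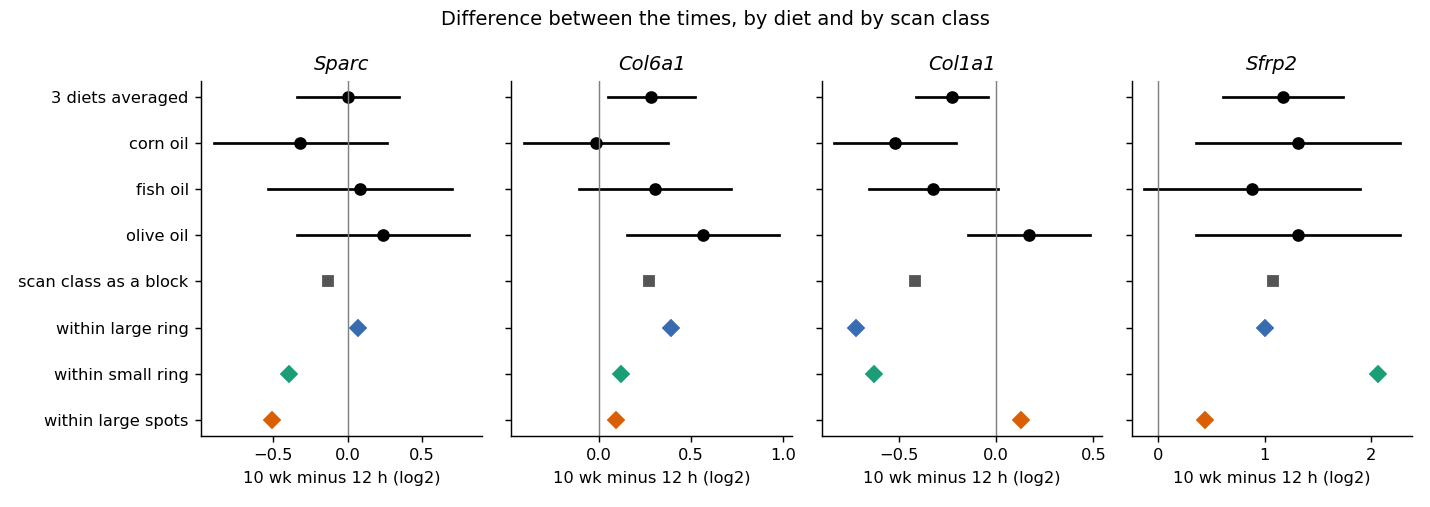
Difference of 10 wk minus 12 h (log2, horizontal axes of different span) for each member. Circles with lines are the fit over 29 rats with 95% intervals, for the diets averaged and singly. Squares are the fit with scan class as a block for the diets averaged, and diamonds are differences of means within a scan class, diets pooled. Every Sfrp2 point is above 0, the feature it was chosen by, so its intervals only show spread and test nothing. Col1a1 is below 0 except in olive oil rats and in the large spots class, and Sparc lies on both sides of 0.

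The 4 members did not vary together as a single group. After each group's mean was subtracted, Sparc and Col6a1 deviated in the same direction from rat to rat, while neither followed Col1a1 or Sfrp2. The Pearson r of Sparc with Col6a1 was 0.74 over 28 rats (permutation p = 2e-05, adjusted over 6 pairs 0.00012), and Spearman's rho was 0.64 (adjusted permutation p = 0.00192). Without rats 104 and 335, the farthest from the median of Sparc, r was 0.63. It was 0.82 within the 10 wk rats, 0.72 within the 12 h rats (n = 14 each) and 0.74 with scan class means subtracted as well. The other 5 pairs had r between -0.16 and 0.12 and rho between -0.19 and 0.10 (adjusted permutation p from 0.801 to 0.932 for r and 0.935 to 0.963 for rho). For Sparc with Col1a1, r was -0.02 over 29 rats, and for Sparc with Sfrp2 it was 0.12. Col1a1 rests on 1 probe, whose repeat arrays had a median range of 0.26, against a residual SD between rats of 0.25. Its low r cannot separate a lack of relation from the spread between repeat arrays.

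Genes most like each member were ranked by the same group-centred r over 4428 other named genes, and these values are descriptions, since the genes were picked for them. Sparc was most like Pcolce, which encodes an enhancer of procollagen C-proteinase (r = 0.80), Igfbp3 (0.79) and Igfbp5 (0.77), which encode binding proteins for insulin-like growth factors. Col6a1 was most like Mpeg1, a gene of macrophages (r = 0.77), Pcolce (0.75) and Sparc (0.74). Col1a1 was most like Dusp7 (0.66), Yipf2 (0.64) and Srsf5 (0.63), which encode a phosphatase of MAP kinases, a Golgi membrane protein and a splicing factor, and r with Srsf5 dropped to 0.34 with scan class means subtracted. Sfrp2 was most like Rgcc, a regulator of the cell cycle (r = 0.95), Prelp, a small leucine-rich proteoglycan that binds basement membranes and collagen (0.92), and Marveld1 (0.90). With scan class means subtracted these 3 stood at 0.96, 0.92 and 0.91, and without the 2 rats farthest from the Sfrp2 median at 0.94, 0.91 and 0.89.

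The genes that followed Sfrp2 within groups had these differences between the times. Prelp averaged 8.33 ± 0.59 at 10 wk (n = 14) and 7.57 ± 0.71 at 12 h (n = 15), and it rose by 0.74 (SE 0.23, adjusted p = 0.0141), which became 0.65 (adjusted p = 0.0975) with scan class as a block. Rgcc averaged 8.87 ± 0.61 at 10 wk and 8.59 ± 0.66 at 12 h, a difference of 0.27 that did not pass (adjusted p = 0.376). Marveld1 averaged 8.13 ± 0.35 at 10 wk and 7.90 ± 0.27 at 12 h, a difference of 0.23 (adjusted p = 0.125).

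**Figure D4:**
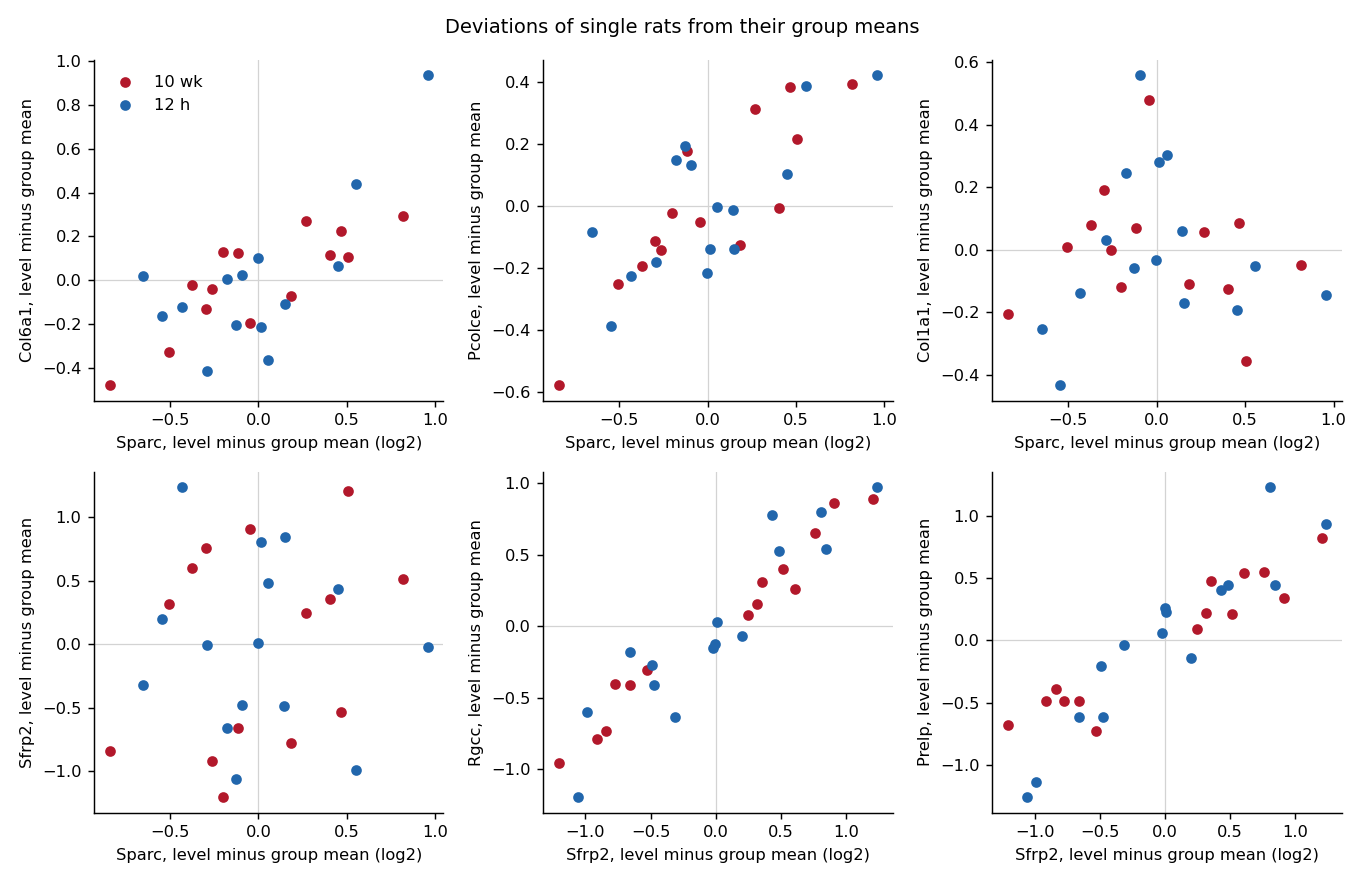
Deviation of each rat's level from its group's mean (log2, both axes) for pairs of genes, with 10 wk rats in red and 12 h rats in blue. Sparc rises with Col6a1 (r = 0.74) and Pcolce (r = 0.80) and shows no slope with Col1a1 (r = -0.02) or Sfrp2 (r = 0.12), while Sfrp2 lies close to a line with Rgcc (r = 0.95) and Prelp (r = 0.92).

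Markers of the cell types that mucosa can hold were read beside these values, and relations with them were added after the data were seen. They are given as summed linear levels of each list without the 4 members. A linear sum weighs its brightest gene most. In the fibroblast list Vim averaged 10.01 at 10 wk, and the next gene, S100a4, 7.88. In the macrophage list Cd14 averaged 13.63 and C1qb 9.34, and in the adipocyte list Pnpla2 12.40 and Fabp4 7.45. Each of these 3 sums therefore rests mostly on 1 gene. In the lymphocyte list Jchain averaged 10.36 at 10 wk and Ptprc 8.41, and in the smooth muscle list Myh11 9.31 and Tagln 7.85. In those sums too 1 gene weighs heavily. Of 10 smooth muscle markers 4 were on the array and tested. Against 19.2% of all tested probes, 3 of these 4 were higher at 10 wk. They were Myh11 by 0.59 (smooth muscle myosin), Tagln by 0.48 and Smtn by 0.30 (Tagln was no longer called with the block, adjusted p = 0.15). The summed level of the 4 was 882 to 2116 at 10 wk (median 1191), against 663 to 1555 at 12 h (median 884). Of 3 tested fibroblast markers none was higher and Col1a1 itself was lower, with Vim at -0.09 and S100a4 at -0.01, and the summed level of 6 was 1262 to 2418 at 10 wk (median 1725), against 1330 to 2345 at 12 h (median 1900). Mfap5 of that list lay at the floor in every rat. Endothelial markers had 1 of 4 lower (Flt1), adipocyte markers 0 of 3 called and neuron and glia markers 1 of 2 lower (Nefl). Macrophage markers had 1 of 7 lower (Itgam), lymphocyte markers 0 of 4 called and epithelial markers 1 of 5 lower (Cldn3). No marker of these 6 lists was higher. Of all tested probes 36.9% were called, 19.2% as higher and 17.7% as lower. With scan class as a block Myh11 (0.56, adjusted p = 0.0296), Smtn (0.34, adjusted p = 0.0248), Flt1 (-0.37, adjusted p = 0.00358) and Cldn3 (-0.27, adjusted p = 0.0285) passed, and Nefl (-0.18, adjusted p = 0.218) and Itgam (-0.11, adjusted p = 0.263) did not. Lyz2 (-0.97, adjusted p = 0.00386) and Lck (-0.43, adjusted p = 0.00764) were lower with the block alone. Vwf turned from 0.17 (SE 0.39) to -1.55 (adjusted p = 0.00302) with the block. It lay at the floor in 9 of 14 late and 12 of 15 early rats, so this value is not read as a fall. All 5 epithelial markers were above noise on every array.

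Sparc followed the summed fibroblast markers, of which Vim is by far the brightest, from rat to rat. The group-centred r was 0.81 over 29 rats (adjusted permutation p = 0.00032 over 32 relations of members with lists) and rho was 0.78. The raw p of 1e-05 is the smallest that 100000 resamples can give. Sparc also followed the lymphocyte markers, of which Jchain is the brightest, with 0.62 (adjusted permutation p = 0.00752). With the smooth muscle markers, of which Myh11 is the brightest, its r was 0.57 (adjusted permutation p = 0.0089). The smooth muscle relation was 0.81 within the 10 wk rats and 0.30 within the 12 h rats. Col6a1 followed the fibroblast markers with 0.58 (adjusted permutation p = 0.0076) and the lymphocyte markers with 0.58 (adjusted p = 0.0076). With the fibroblast markers its r was 0.92 within the 10 wk rats and 0.38 within the 12 h rats, and with the lymphocyte markers 0.75 and 0.52. Col1a1 passed with none of the 8 lists, its r with the fibroblast markers being -0.10 (adjusted p = 0.785). Sfrp2 had r = -0.50 with the epithelial markers (adjusted permutation p = 0.0257), but rho was -0.42 (adjusted p = 0.0739) and r was -0.75 within the 10 wk rats and -0.10 within the 12 h rats. For Sfrp2 with the macrophage markers r was -0.44 (adjusted permutation p = 0.0744) and rho -0.49 (0.0402), and for Sparc with the epithelial markers r was -0.43 (0.0744) and rho -0.48 (0.0402), so both passed by rho alone. The r of Sfrp2 with the smooth muscle markers, which were higher at 10 wk as Sfrp2 was, was 0.22 (adjusted p = 0.398), and with the fibroblast markers -0.15 (adjusted p = 0.621).

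Among the other matrix genes, calls were made in both directions. Of 6 collagens of the fibrillar and associated list on the array only the 2 members were bright enough to test, so Col1a1 is its single call. In the basement membrane list 2 of 3 tested genes fell, Col15a1 by 0.47 (SE 0.08, adjusted p = 6.38e-05) and Lama3, a laminin chain of epithelial basement membranes, by 0.31 (adjusted p = 0.0281, and 0.0921 when scan class was blocked), while Agrn stood at 0.0097. Of 5 tested matrix glycoproteins and proteoglycans Prelp alone passed, with Postn at 0.05, Smoc2 at 0.24 and Sparcl1 at 0.25, and with scan class as a block Smoc2 (0.62, adjusted p = 0.000374) and Sparcl1 (0.80, adjusted p = 0.000756) passed and Prelp did not. Among 6 tested genes of collagen folding and crosslinking 1 fell, P4ha2, a prolyl hydroxylase subunit, by 0.26 (adjusted p = 0.027, and 0.339 with the block). Plod1, a lysyl hydroxylase, passed as higher with the block alone (0.44, adjusted p = 0.0129) and stood at 0.06 without it. Among 9 tested matrix proteases and inhibitors 1 rose, Timp4, an inhibitor of metalloproteinases, by 0.34 (adjusted p = 0.00425, and 0.101 with the block). Mmp11, a metalloproteinase, passed as higher with the block alone (1.19, adjusted p = 0.00335). Without the block it stood at 0.14 (SE 0.39, adjusted p = 0.808), and it lay at the floor in 3 late and 4 early rats. The called shares of these lists stand against 36.9% of all tested probes, and with so few members no list is set apart by them.

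Besides Sfrp2, 9 genes of the Wnt list were tested, of which 3 fell and none rose, with a median difference of -0.01. That is 33.3% of the list, against 36.9% of all tested probes. Gsk3b, a kinase of the complex that destroys beta-catenin, fell by 0.44 (SE 0.07, adjusted p = 1.89e-05), Tcf7l2, a transcription factor that acts with beta-catenin, by 0.38 (adjusted p = 0.0197) and Fzd5, a Wnt receptor, by 0.34 (adjusted p = 0.0157). With scan class as a block Gsk3b stood at -0.47 (adjusted p = 1.66e-05), and Tcf7l2 (-0.24, adjusted p = 0.206) and Fzd5 (-0.27, adjusted p = 0.0551) no longer passed. Lrp5, a Wnt co-receptor, stood at 1.14 (SE 0.58, adjusted p = 0.125) and turned to -1.72 (adjusted p = 0.0233) with the block. Ctnnb1, which encodes beta-catenin, stood at 0.17, Apc at 0.02 and Axin1 at -0.01, none past the threshold.

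In the TGF-beta and BMP list 4 of 14 tested genes fell and 2 rose, with a median of -0.08. That is 42.9% of the list, against 36.9% of all tested probes. Bmp2, which encodes a BMP ligand, fell by 0.80 (SE 0.15, adjusted p = 0.000198), to 9.71 on average at 10 wk, against 10.51 at 12 h. Tgfbr3, a co-receptor, fell by 0.44 (adjusted p = 0.0206), Bmp3 by 0.37 (adjusted p = 0.00954) and the receptor gene Bmpr2 by 0.29 (adjusted p = 0.0168). The genes of the repressors Tgif1 and Skil rose by 0.26 (adjusted p = 0.00124) and 0.23 (adjusted p = 0.0212). With the scan class block Bmp2 (-0.80, adjusted p = 0.0017) and Bmp3 (-0.43, adjusted p = 0.0217) passed, Bmpr2, Tgif1 and Skil no longer passed (adjusted p = 0.199, 0.167 and 0.128), and Tgfbr3 turned to 0.13 (adjusted p = 0.607). Smad4 (0.43, adjusted p = 0.014), Smad5 (-0.31, adjusted p = 0.00415) and Bmpr1a (-0.45, adjusted p = 0.0137) passed with the block alone.

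**Figure D5:**
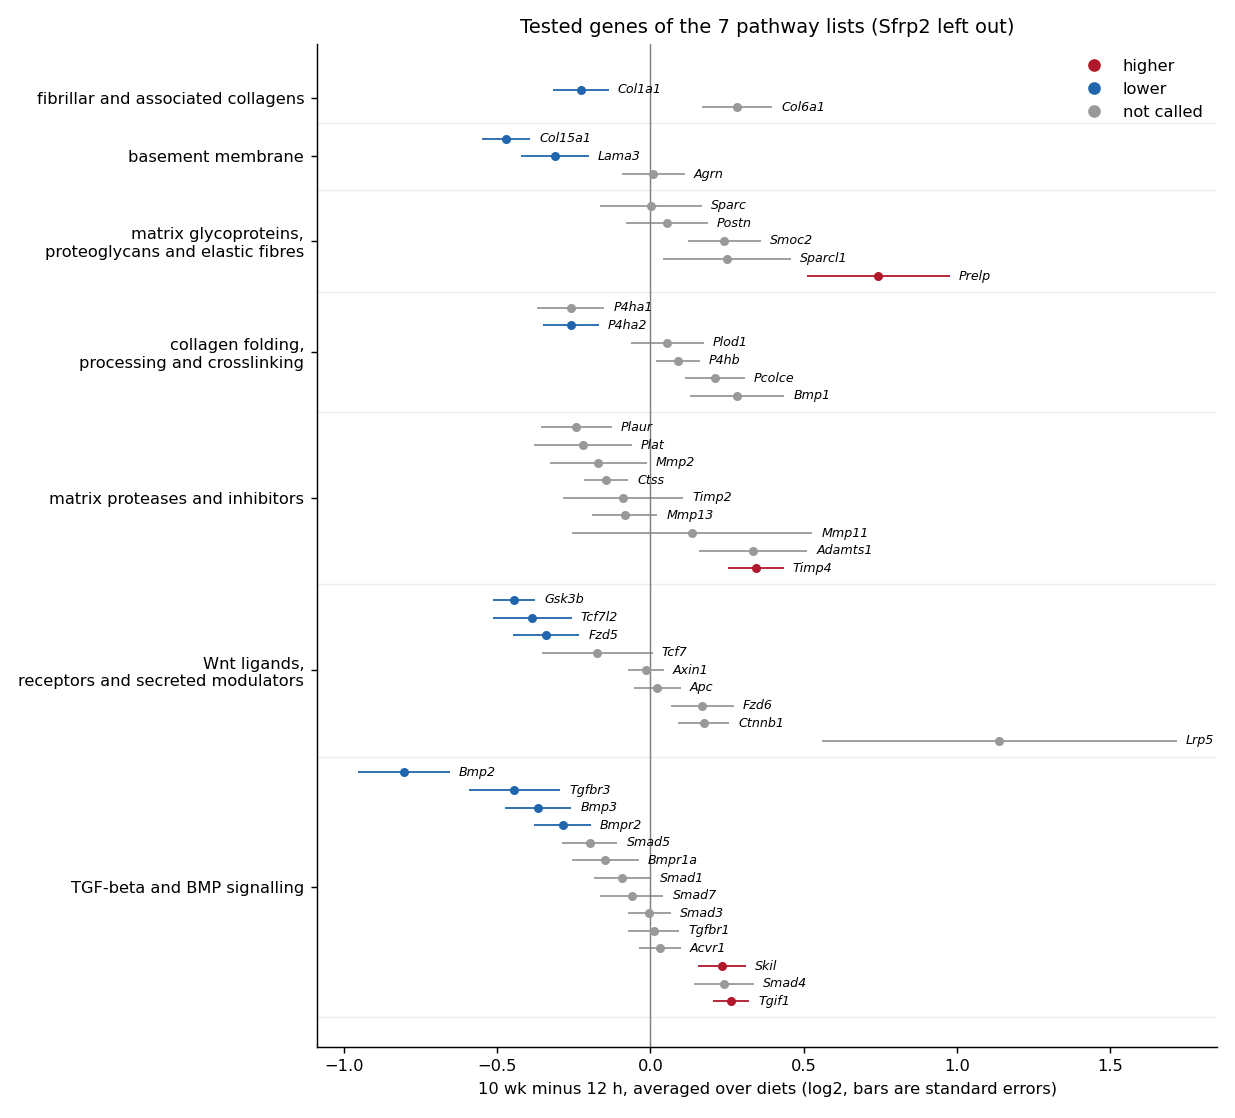
Difference of 10 wk minus 12 h averaged over diets (log2, bars are standard errors) for the tested genes of 7 lists, Sfrp2 left out, with red for genes that passed as higher, blue for genes that passed as lower and grey for the rest. Bmp2 lies farthest below 0 at -0.80, Prelp is the highest gene that passed at 0.74, and Lrp5 at 1.14 did not pass.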

How the data were processed

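RNA from 29 rats was hybridised to 43 one-colour CodeLink arrays, and 10 rats had repeat arrays. Per the file headers, the deposited files hold spot mean and background median intensity for each probe. The authors' deposited normalized intensity is background-subtracted signal divided by 1 number per array, as found by setting its column against the spot values, and it was used only as an alternative, because 1 constant per diet replaces the measured value on some probes. Which software quantified the spots: not given in the sources used here.

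Background was corrected by normexp (offset 50) and arrays were quantile normalized in limma 3.58.1 under R 4.3.3, floored at the 10th percentile (log2 6.46) and averaged per rat on the log2 scale. Probes above the 30th percentile (log2 7.66) in at least 4 rats were tested. The 6 groups entered 1 limma fit (lmFit, eBayes) with 23 residual degrees of freedom, and p-values were adjusted by Benjamini-Hochberg over all 6378 probes. The block fit used means per rat and scan class with class as a term and rat as a random block. Classes were set by a median background above 75, a spot diameter above 18 and a ring area below 450. A gene with several probes is represented by its brightest. Relations used 100000 permutations. The fit was tested on simulated data. Median signal above background was 163 to 685 per array, and the number of rats limits precision. Each rat is a separate animal, so p-values measure the spread between rats.

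The members and lists were chosen with earlier results of these data known. The rule for named genes takes every member probe, from each of 15 lists up to 3 rises and 3 falls of the greatest size that passed, and the 3 genes most like each member; genes that did not pass are named to show the rest of a list and were picked after their values were seen. Of 298 list genes 128 were on the array and 80 were tested. Symbols are GEO's platform annotation, which gives 6252 probes 1 symbol, 75 several and 2125 none.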

Additional observations from a re-analysis of the deposited data

Results flagged for a closer look

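In fish oil rats at 12 h the Col1a1 level of rat 203 was 9.03, apart from the other 4 rats, which lay between 8.61 and 8.72. Its gap to the nearest rat was 0.748 of the range of the group, above Dixon's critical value of 0.71 for 5 samples. This was the only such sample in 24 combinations of member and group, and chance alone gives about 1 in 20. Without rat 203 the Col1a1 difference between the times, averaged over diets, was -0.20 (limma adjusted p = 0.0777).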

How the results depend on the processing

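No paired analysis was possible because the numbers in the labels mark repeat arrays of a rat and pair no rats across groups. The Col1a1 difference averaged over diets, -0.23, lost its call with no background correction (-0.21, adjusted p = 0.0532), no filter on dim probes (-0.23, adjusted p = 0.0557), deposited normalized intensity (-0.17, adjusted p = 0.364), rat as a random block (-0.20, adjusted p = 0.17) and without the 6 rats with large spots arrays (-0.25, adjusted p = 0.0762), an alternative chosen after seeing the data. It was 0.13 within large spots, -0.63 within small ring and -0.72 within large ring arrays, and -0.28 to -0.18 with each rat left out in turn. Col6a1 (0.28) passed with array quality weights (0.29, adjusted p = 0.0417) and without the rats with large spots arrays (0.36, adjusted p = 0.0327), and ran from 0.25 to 0.36 with a rat left out. Sparc (0.0019) turned to -0.13 with the scan class block, -0.051 with rat as a random block, -0.10 with quality weights, -0.51 within large spots and -0.39 within the small ring class, and ran from -0.066 to 0.082. Sfrp2 (1.17) was 2.06 within the small ring class, 0.44 within large spots and 0.44 in the deposited values, and ran from 1.03 to 1.30.

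In the deposited values Sfrp2 turned to -0.19 in corn oil and -0.083 in fish oil rats, where constants replace it, and its diets at 12 h passed (adjusted p = 0.00273), and Col6a1 gave 0.26 in corn oil and -0.30 in olive oil rats, where constants replace it on 12 of 13 arrays. Col6a1 in corn oil rats (-0.02) also turned to 0.032 with the scan class block, 0.012 with the first array of each rat, 0.070 with quality weights and 0.10 without the rats with large spots arrays, and ran from -0.12 to 0.22 with a rat left out. Col1a1 in olive oil rats turned to -0.043 and Sparc in fish oil rats to -0.081 with the scan class block, and Sparc in olive oil rats to -0.20 with quality weights. Sparc in fish oil rats ran from -0.085 to 0.22 with a rat left out. The r of Sparc with Col1a1 (-0.02) was 0.0094 by Spearman, 0.11 with scan class subtracted and 0.065 without 2 rats, and that of Col1a1 with Sfrp2 (0.02) was -0.29 and -0.029 under the last 2.

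Of all tested probes, 2355 passed between the times (2020 to 2482 with a rat left out, 1233 in the deposited values). In corn oil it was 193 (65 to 266), 326 with no dim filter, 800 with the scan class block, 341 with rat as a random block and 415 with quality weights. In fish oil it was 776 (338 to 857) and 170 in the deposited values, and in olive oil 852 (456 to 945), 134 in the deposited values, 344 with the block and 2321 with quality weights. The F test of diets at 12 h passed 0 probes (0 to 2), 4 with no dim filter, 17 in the deposited values, 22 with first arrays, 411 with quality weights and 5 without high-background arrays. That at 10 wk passed 0 (0 to 22), 1 with no dim filter, 17 in the deposited values and 10 with the block, and the interaction 0 (0 to 0), 3 in the deposited values and 7 with first arrays. The causes were not tested.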
